A study of Homo sapiens with 6 samples.

Results

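Histone chaperones are acidic proteins that hold histones away from DNA and hand them over during nucleosome assembly and disassembly. Described here are 8 genes of the NAP1, nucleoplasmin, SET, NASP and ANP32 families, namely NAP1L1, NAP1L4, NPM1, NPM3, SET, NASP, ANP32A and ANP32B. They were picked out of the table by gene symbol, each symbol had 1 row, and they are 8 of 14574 genes in the table. The cells were HCT116, a long-established line from a human colorectal carcinoma, either parental or with LARP1 knocked out, and every culture had received the mTOR kinase inhibitor TAK228 at 250 nM for 48 h, refreshed after 24 h. The RNA was that of the pooled non-polysomal gradient fractions, which run from the small ribosomal subunit to the monosome. RNA-seq was run on 2 parental and 2 knockout samples, and the RNA of both parental samples also went into 2 libraries of transcription start sites (TSS). The labels do not state whether the knockout cells are 1 clone or a pool, and no untreated cells, polysomal RNA or whole-cell RNA were analysed here.

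The protein LARP1 binds mRNA caps that are followed by the terminal oligopyrimidine (TOP) motif, a cytidine followed by a run of pyrimidines at the very 5′ end of an mRNA. TOP mRNAs encode ribosomal proteins and other parts of the translation machinery, and their translation is repressed when mTOR is inhibited. NAP1L1 and NPM1 are chaperone genes commonly counted among TOP mRNAs. NAP1 proteins carry H2A-H2B dimers, nucleophosmin (NPM1) is an abundant nucleolar chaperone, and NASP binds H3-H4 and linker histones. SET and the ANP32 proteins bind histones and shield them from acetylation, and SET and ANP32A are also inhibitors of protein phosphatase 2A.

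The 5′ ends of these mRNAs are shown because they are where a TOP motif would lie. Each line gives the 10 bases before and the first 20 bases of the transcript at a RefSeq start (GRCh38.p14), and capitals mark the unbroken run of C and T that opens the transcript when its first base is C. RefSeq lists 16 starts for the 8 genes. Where a gene has several, the line shows the start with the longest such run, or the first listed start if none opens with C.
NAP1L1, minus strand, chr12:76084666-76084695: gctcttgggtCTTTTTTagcgccatctgct
NPM1, plus strand, chr5:171387839-171387868: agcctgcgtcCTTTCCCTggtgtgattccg
ANP32B, plus strand, chr9:97983331-97983360: ctccagccccCTTTTCCCTCCatggtttct
NPM3, minus strand, chr10:101783427-101783456: ggaactggccgagggtccccggctttgtgc
NASP, plus strand, chr1:45584031-45584060: cgcgcggggtCTCTaatctgccattttctg
SET, plus strand, chr9:128689212-128689241: ctgcgcccgcCCCTCgccgtaggaggaggt
NAP1L4, minus strand, chr11:2992310-2992339: gggagccggcgttgttggaggccacggcgg
ANP32A, minus strand, chr15:68820876-68820905: cgatcaggttagtgtgcgccgcgggtgctg

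The opening run was 7 bases in NAP1L1, 8 in NPM1 and 11 in ANP32B. It was 5 bases at 1 of the 5 SET starts and 4 bases in NASP. The only listed start of NPM3 and of ANP32A, and all 4 of NAP1L4, opened with another base. NPM1 has 2 listed starts, and the other one opens with G. These are annotated ends; the deposited values are totals per gene and do not show which start was used.

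Sequencing depth was similar between groups. The reads behind the table summed to 19038642 to 26955481 per library, of which 64.4% to 71.4% fell in mitochondrial genes and 6267820 to 9063478 in all others. All 6 epithelial markers had reads in every library, with a summed level of 13766 and 14421 in parental RNA-seq and 10943 and 12703 in the knockout libraries. KRT19 went from 4489 and 4085 to 2563 and 2200, and EPCAM from 576 and 544 to 360 and 240. CDH1 and KRT18 were also lower in both knockout libraries, whereas KRT8 and CLDN4 overlapped. Of 7 mesenchymal markers 5 had a row, and their sum was 665 and 727 in parental and 753 and 889 in knockout libraries, with only COL3A1 at 0, in the parental RNA-seq libraries. Within that list VIM went from 5.38 and 6.09 to 710.4 and 626, whereas SPARC went from 662 and 620.4 to 6.11 and 10.9. ZEB1 went from 37.7 and 26.8 to 103 and 79.9, COL3A1 from 0 and 0 to 31.3 and 23.2, and COL1A1 overlapped. The part of these differences in the results was not tested. LARP1 mRNA was lower in the knockout under the deposited scaling (log2 fold change -1.13, SE 0.18, limma adjusted p = 2.86e-09). With each library centred on its median gene it was -0.82. Per 1000000 reads outside mitochondrial genes it was 69.4 and 82.8 in parental RNA-seq and 73.2 and 66.4 in knockout libraries, so these shares overlapped. Values below are normalised read counts, that is, reads divided by the authors' size factor for the library, and group values are mean ± SD (n = 2 libraries). Fold changes are log2(value + 1) in knockout minus parental cells. Bulk values cannot tell fewer cells holding an mRNA from less mRNA per cell, nor retention in the fraction from total abundance. The labels do not name separate cultures for the replicates, so their spread may be technical.

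Of the 8 chaperone mRNAs, 6 were lower in the knockout fraction at a limma adjusted p under 0.05 and 0 were higher (0 also at an unadjusted p under 0.05). Among all 14561 genes tested, 25.1% were called lower and 3.77% higher. The falls covered a wide range: NAP1L1 14.9-fold, NPM1 7.85-fold, ANP32B 3.19-fold, NPM3 2.18-fold, NASP 1.57-fold and SET 1.36-fold, while NAP1L4 and ANP32A did not pass. The median log2 fold change of the 8 was -0.90, against -0.29 for all genes tested, and after centring -0.59 against 0.02. In the knockout, both libraries lay below both parental RNA-seq libraries for 6 of 8 members and for 50.4% of all genes tested. After centring on the median gene of each library, which removes the shift shared by most genes, 5 members were lower and 1 higher, with 16.2% and 14.6% of all genes tested called lower and higher. Centred, both knockout libraries still lay below both parental ones for 6 members, against 31.3% of all genes tested, and above both for 2 members, NAP1L4 and ANP32A, against 33.1%. The calls for NAP1L1, NPM1, ANP32B and NPM3 held under each of the 14 alternatives run, whereas those for SET and NASP did not. None of these alternatives scaled libraries by read share, which is given below.

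**Figure D1:**
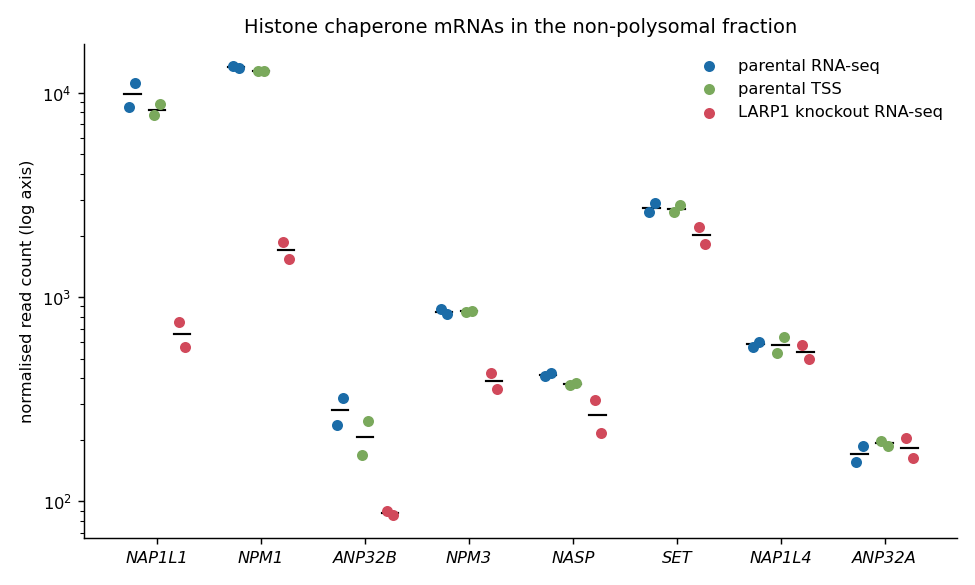
Normalised read count (log axis) of each chaperone mRNA in the 2 parental RNA-seq, 2 parental TSS and 2 knockout libraries; points are libraries and bars are group means. The knockout points of NAP1L1 and NPM1 lie far below all parental points, those of ANP32B, NPM3, NASP and SET lie below them by less, and those of NAP1L4 and ANP32A lie close to them, 1 within and 1 just outside the range of the parental points in each gene.

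NAP1L1, a chaperone that carries H2A-H2B dimers between cytoplasm and nucleus, changed most. The gene (ENSG00000187109.13) spans 76036587 to 76085033 on the minus strand of chromosome 12 in GRCh38. It read 8548 and 11181 in parental RNA-seq and only 752 and 572 in knockout libraries. Its TSS libraries, at 7768 and 8763, were close to the RNA-seq libraries of the same RNA and far above the knockout. The group means were 9865 ± 1862 and 662 ± 127, a log2 fold change of -3.90 (SE 0.15, limma adjusted p = 1.14e-146), which ranked 45th from the lowest of 14561 genes. It was -3.58 after centring.

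NAP1L4, the closely related NAP1 family member on chromosome 11 (ENSG00000205531.12, 2944431 to 2992377, minus strand), did not pass the test. Its values were 571 and 606 in parental RNA-seq, 531 and 638 in TSS and 581 and 499.8 in knockout libraries, so the groups overlapped. The log2 fold change was -0.13 (SE 0.17, 95% interval -0.46 to 0.21, limma adjusted p = 0.63) and turned to 0.19 after centring (limma adjusted p = 0.16). The lower end of the interval under the deposited scaling lies far above the change of NAP1L1.

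A ratio of related mRNAs within a library does not depend on the scaling. The log2 ratio of NAP1L1 to NAP1L4 was 3.90 and 4.20 in parental RNA-seq, 3.87 and 3.78 in the TSS libraries, and 0.37 and 0.19 in the knockout libraries. NAP1L1 reads thus outnumbered NAP1L4 reads by a wide margin in every parental library and only slightly in the knockout. The mean ratio fell by 3.77 from 4.05 ± 0.21 to 0.28 ± 0.13 (exact two-sided permutation p = 0.333, the smallest that 2 against 2 libraries allow). These are ratios of reads and are not corrected for transcript length.

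**Figure D2:**
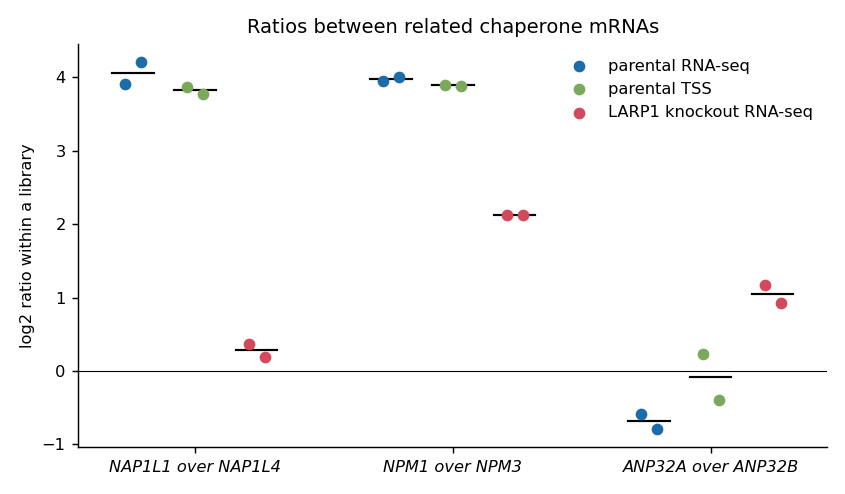
Log2 ratio of related chaperone mRNAs within each library, with bars for group means. The NAP1L1 to NAP1L4 and NPM1 to NPM3 ratios are lower in both knockout libraries than in every parental library, and the ANP32A to ANP32B ratio is higher in both.

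NPM1 encodes nucleophosmin, which forms pentamers in the granular part of the nucleolus and takes part in ribosome assembly besides chaperoning histones. The gene (ENSG00000181163.13) lies on the plus strand of chromosome 5, 171387116 to 171411137. Its values were 13438 and 13241 in parental RNA-seq, 12711 and 12710.2 in the TSS and 1857 and 1541 in the knockout libraries. All 4 parental libraries lay within a narrow range and the knockout libraries lay far below it. The means of 13339.7 ± 139.6 and 1699 ± 223 gave a log2 fold change of -2.98 (SE 0.14, limma adjusted p = 3.09e-91), or -2.67 after centring. GENCODE release 29 lists 45 NPM1 pseudogenes, so the value is uncertain. One of them, NPM1P27, had a row of its own, at 213 and 249.9 in parental RNA-seq, 213 and 211 in TSS and 22.9 and 23.2 in knockout libraries. Its fall ran alongside that of NPM1, and whether its reads came from NPM1 mRNA was not tested.

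NPM3, a nucleoplasmin family protein that binds NPM1, fell by less. The gene (ENSG00000107833.10) lies on the minus strand of chromosome 10, 101781325 to 101783413. It read 872 and 824 in parental RNA-seq, 849.6 and 859 in TSS, and 424 and 353 in knockout libraries, with no overlap between genotypes. Its log2 fold change was -1.13 (SE 0.17, limma adjusted p = 9.22e-10), or -0.82 after centring. The log2 ratio of NPM1 to NPM3 was 3.97 ± 0.04 in parental RNA-seq (mean ± SD, n = 2), 3.90 and 3.89 in TSS, and 2.13 and 2.12 in knockout libraries. That ratio thus fell by 1.85, far more than the spread between replicates (exact two-sided permutation p = 0.333, the smallest possible).

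The leucine-rich acidic proteins ANP32A and ANP32B also parted. ANP32B, a chaperone of core histones (ENSG00000136938.8, chromosome 9, 97983361 to 98015943, plus strand), read 236 and 322 in parental RNA-seq, 169 and 247 in TSS, and 89.4 and 85.3 in knockout libraries. The parental libraries differed from each other more than the knockout libraries did, yet all lay above them. The log2 fold change was -1.65 (SE 0.22, limma adjusted p = 1.24e-12), or -1.33 after centring. ANP32A, a phosphatase inhibitor (ENSG00000140350.15, chromosome 15, 68778535 to 68820897, minus strand), gave 156 and 186 in parental RNA-seq, 197 and 187 in TSS, and 203 and 163 in knockout libraries. Its groups overlapped, at a log2 fold change of 0.09 (SE 0.21, 95% interval -0.32 to 0.51, limma adjusted p = 0.784). After centring it was 0.40 (limma adjusted p = 0.0322, among values from 0.0294 to 0.96 over its alternatives). The log2 ratio of ANP32A to ANP32B went from -0.59 and -0.78 in parental RNA-seq to 1.18 and 0.93 in knockout libraries, a difference of 1.74 (exact two-sided permutation p = 0.333, the smallest possible). In the TSS libraries that ratio was 0.23 and -0.40, between the RNA-seq groups.

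SET and NASP fell less than the other called members, and their calls did not hold under every alternative. SET, a subunit of a complex that inhibits histone acetyltransferases (ENSG00000119335.16, chromosome 9, 128683424 to 128696400, plus strand), had values of 2602 and 2870.3 in parental RNA-seq, 2611 and 2812 in TSS, and 2201 and 1828 in knockout libraries. The groups did not overlap, and the log2 fold change was -0.45 (SE 0.15, limma adjusted p = 0.013). It was -0.14 after centring (limma adjusted p = 0.228), and ran from -0.58 to -0.31 with 1 library left out. GENCODE lists 19 SET pseudogenes, so this value is uncertain too. NASP, which keeps a reserve of H3-H4 (ENSG00000132780.16, chromosome 1, 45583846 to 45618904, plus strand), gave 411 and 423 in parental RNA-seq, 372 and 379 in TSS, and 315 and 217 in knockout libraries. Its log2 fold change of -0.67 (SE 0.19, limma adjusted p = 0.00223) was -0.36 after centring (limma adjusted p = 0.03). With 1 library left out the NASP change ran from -0.94 to -0.40, and without the intensity trend its limma adjusted p was 0.133.

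**Figure D3:**
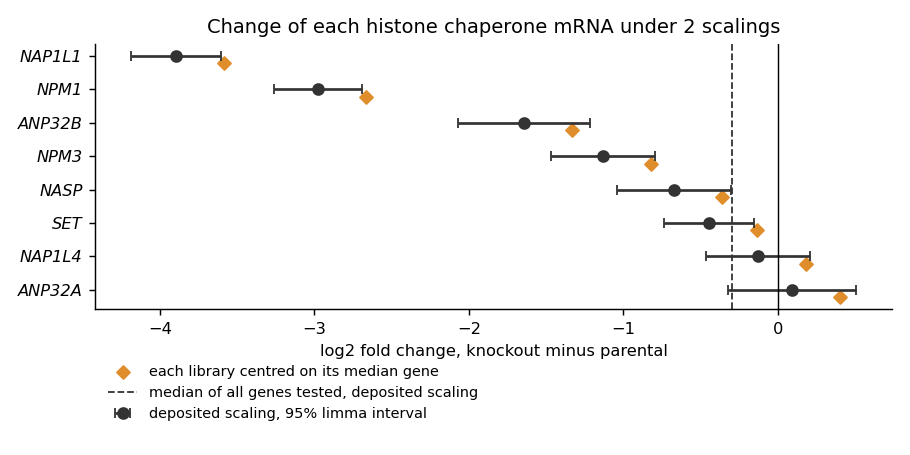
Log2 fold change of each chaperone mRNA in knockout against parental RNA-seq libraries (n = 2 each), with circles and 95% limma intervals for the deposited scaling and diamonds for libraries centred on their median gene. NAP1L1 to NPM3 lie below 0 under both, SET lies near the dashed median of all genes tested at -0.29, and NAP1L4 changes sign.

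In the authors' deposited table, which follows the mean of all 4 parental libraries, TSS included, the linear folds of parental over knockout were 13.7 for NAP1L1, 7.67 for NPM1, 2.78 for ANP32B and 2.19 for NPM3. The same authors' deposited table gave SET 1.35 (authors' adjusted p = 4.11e-04), NASP 1.49 (0.00238), NAP1L4 1.08 (0.57) and ANP32A 0.996 (0.989). Measured against the TSS libraries of the parental RNA alone, both knockout libraries lay below both TSS libraries for the same 6 members, which was so for 41.7% of all genes tested.

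Between both kinds of parental library the members differed little. The log2 ratio of TSS to RNA-seq for the same RNA ran from -0.48 in ANP32B to 0.34 in ANP32A for RNA sample 1, and from -0.38 in ANP32B to 0.08 in NAP1L4 for RNA sample 2. The median of all genes tested was -0.10 and -0.13 in these samples. ANP32B was thus the member with the lowest ratio in both, and NAP1L1 had -0.14 and -0.35.

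Read shares give the members' place in the fraction without the authors' size factors. They scale each library by its own reads outside mitochondrial genes instead. The 8 mRNAs together took 0.294% and 0.319% of reads outside mitochondrial genes in parental RNA-seq, 0.310% and 0.299% in the TSS libraries and 0.132% and 0.123% in the knockout libraries. Of those reads, NAP1L1 and NPM1 made up 81.9% and 82.4% in parental RNA-seq and 40.6% and 40.2% in knockout libraries. SET made up 9.70% and 9.68% in the former and 34.3% and 34.8% in the latter, and so became the member with the most reads in the knockout.

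Shares per 1000000 reads outside mitochondrial genes separate the members further. NAP1L1 went from 938 and 1202 to 155 and 134, and NPM1 from 1474 and 1423 to 382 and 360.1. ANP32B went from 25.8 and 34.6 in parental RNA-seq to 18.4 and 19.9 in knockout libraries, with 20.7 and 27.8 in TSS libraries. Its fall as a share was thus smaller than as a normalised read count, and the exact 95% binomial intervals of the knockout libraries (15.2 to 22.03 and 16.6 to 23.8) overlapped that of TSS library 1 (17.9 to 23.9). The interval of knockout replicate 2 also overlapped that of parental RNA-seq replicate 1 (22.16 to 29.97), whereas that of knockout replicate 1 did not. NAP1L4 went from 62.6 and 65.1 up to 119.6 and 117, SET from 285 and 309 to 453 and 427, and ANP32A from 17.1 and 20.0 to 41.8 and 38.1. NASP went from 45.0 and 45.5 to 64.7 and 50.7. A share depends on all other mRNAs of the fraction, so SET and NASP, lower as normalised read counts, were higher as shares. NPM3 shares of 95.7 and 88.6 in parental and 87.2 and 82.5 in knockout libraries were close to each other. The lowest count of a member in a library was 116 reads, for ANP32A in parental replicate 1, a share of 17.1 per 1000000 with an exact 95% binomial interval of 14.2 to 20.5. Such intervals cover counting error only.

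The opening runs can be set beside those of other genes. Of 12465 protein-coding genes tested, 10067 (80.8%) had a RefSeq start window, and 410 of these (4.07%) had a start that opens with C and at least 7 unbroken pyrimidines, counting the C. NAP1L1, NPM1 and ANP32B belong to this group, whose median log2 fold change was -0.67 and of which 56.8% were called lower. In the 8431 genes with no start opening with C the median was -0.26 and 22.8% were called lower; NPM3, NAP1L4 and ANP32A belong here. Runs of 1 to 4 bases, as in NASP, had a median of -0.34, and runs of 5 to 6, as at 1 SET start, had -0.51. Leaving out the ribosomal proteins and the 8 chaperones, the longest class kept a median of -0.58 with 52.3% called lower. Length alone did not order the members: ANP32B had the longest run and fell less than NAP1L1 and NPM1, and NPM3 fell without such a run. A run at an annotated start is a description and does not show that LARP1 binds there.

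**Figure D4:**
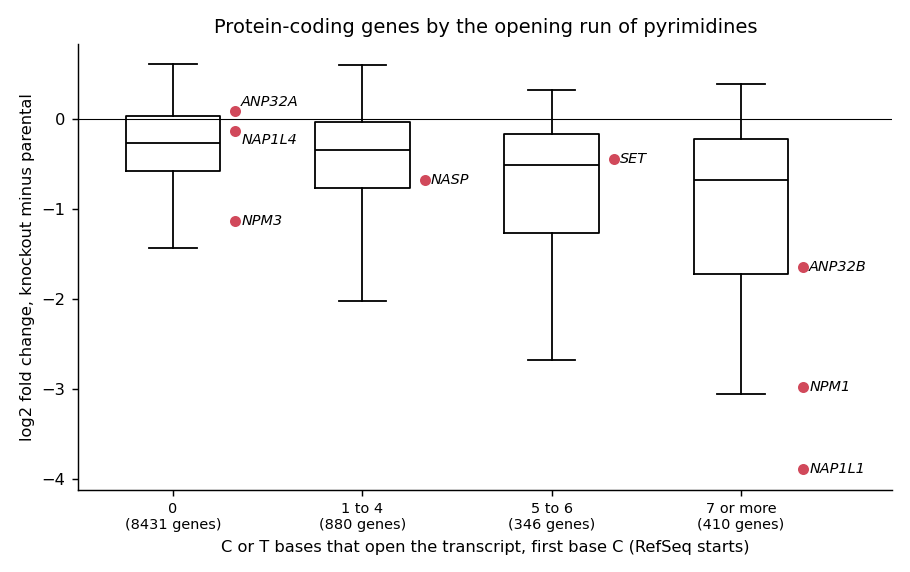
Log2 fold change of protein-coding genes grouped by the longest run of C and T that opens any of their RefSeq starts, with boxes for quartiles, whiskers for the 5th to 95th percentiles and points for the 8 chaperone genes. The medians go from -0.26 with no run to -0.67 with 7 or more bases, where NAP1L1 lies below the lower whisker.

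NAP1L1 and NPM1 lay at or below the median change of classical TOP mRNAs. All 15 TOP mRNAs used as a yardstick outside the ribosomal proteins fell, with a median of -2.89 and a range of -3.85 to -1.50, as did all 77 ribosomal protein mRNAs, with a median of -2.94. EIF3E, a subunit of initiation factor eIF3, had -3.85 (SE 0.14, limma adjusted p = 1.79e-150), and RACK1, a ribosomal scaffold protein, -3.49 (SE 0.15, limma adjusted p = 9.00e-121). ANP32B, at -1.65, lay at the weak end of that range and NPM3, at -1.13, outside it.

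The genes nearest to NAP1L1 in pattern were named by the distance between log2 values centred on each gene's own mean over all 6 libraries, among 7486 genes with a mean of at least 100. They were EIF3E (distance 0.17), LTA4H, which encodes leukotriene A4 hydrolase (0.26), the ribosomal protein gene RPL3 (0.26), AC104389.28 (0.34) and HAS3, a hyaluronan synthase (0.34). LTA4H, for example, read 5879 and 6343 in parental RNA-seq and 468 and 382 in knockout libraries. Nearest to NAP1L4 were MPHOSPH9 (0.029), CTTNBP2NL (0.039), BDP1 (0.045), ZNF839 (0.061) and ZNF557 (0.074), all with overlapping genotypes. Distances near 0 are common among genes that vary little.

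Among 35 other histone chaperones, 32 had a row and were tested. Of these 6 fell, 2 rose and 24 were not called, against 25.1% of all genes tested called lower and 3.77% higher. Their median log2 fold change was -0.21, near the -0.29 of all genes, and both knockout libraries lay below both parental ones for 18 of 32, against 50.4% of all genes tested. The lowest value was -0.72, so none came near NAP1L1, NPM1 or ANP32B. NCL, the nucleolar protein nucleolin, read 1190.0 and 1221 in parental RNA-seq and 801 and 664 in the knockout (a log2 fold change of -0.72, SE 0.16, limma adjusted p = 6.85e-05). SSRP1, a subunit of the H2A-H2B chaperone FACT, went from 1321 and 1260.2 to 853 and 791 (-0.65, SE 0.16, limma adjusted p = 3.69e-04), while its partner SUPT16H gave -0.30 (limma adjusted p = 0.21). IPO4, an importin that carries H3-H4, ATRX, a remodeller that works with the H3.3 chaperone DAXX, RBBP4 and TSPYL1 were the other calls, at -0.70, -0.67, -0.40 and -0.46. RBBP4, a histone-binding subunit shared by CAF-1 and other complexes, and TSPYL1, a NAP1-related protein, had limma adjusted p = 0.0469 and 0.046 and were not called after centring (0.506 and 0.327).

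Higher in the knockout were 2 chaperones. ASF1A, which hands H3-H4 to CAF-1 and HIRA, read 112 and 113 in parental RNA-seq and 239 and 181 in the knockout (a log2 fold change of 0.88, SE 0.22, limma adjusted p = 4.66e-04). Its paralog ASF1B, at 221 and 195 in parental and 186 and 189 in knockout libraries, gave -0.15 (limma adjusted p = 0.64). VPS72, a chaperone of H2A.Z-H2B, went from 194 and 156 to 328 and 268 (0.77, SE 0.20, limma adjusted p = 0.00101). Neither call held in every alternative: without the intensity trend the limma adjusted p was 0.0557 for ASF1A and 0.0822 for VPS72. With 1 library left out, the log2 fold change ran from 0.68 to 1.08 for ASF1A and from 0.61 to 0.92 for VPS72. The ANP32 family member ANP32E gave 0.24 (limma adjusted p = 0.448), and the low-level relatives NAP1L5 and NPM2, at mean levels of 11.8 and 12.4, gave -0.22 and 0.19 without a call. Without the intensity trend 0 of these chaperones were called lower and 0 higher (limma, 4 and 2 at an unadjusted p under 0.05). Over all genes tested that setting called 1962 lower and 282 higher, against 3649 and 549 with the trend.

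**Figure D5:**
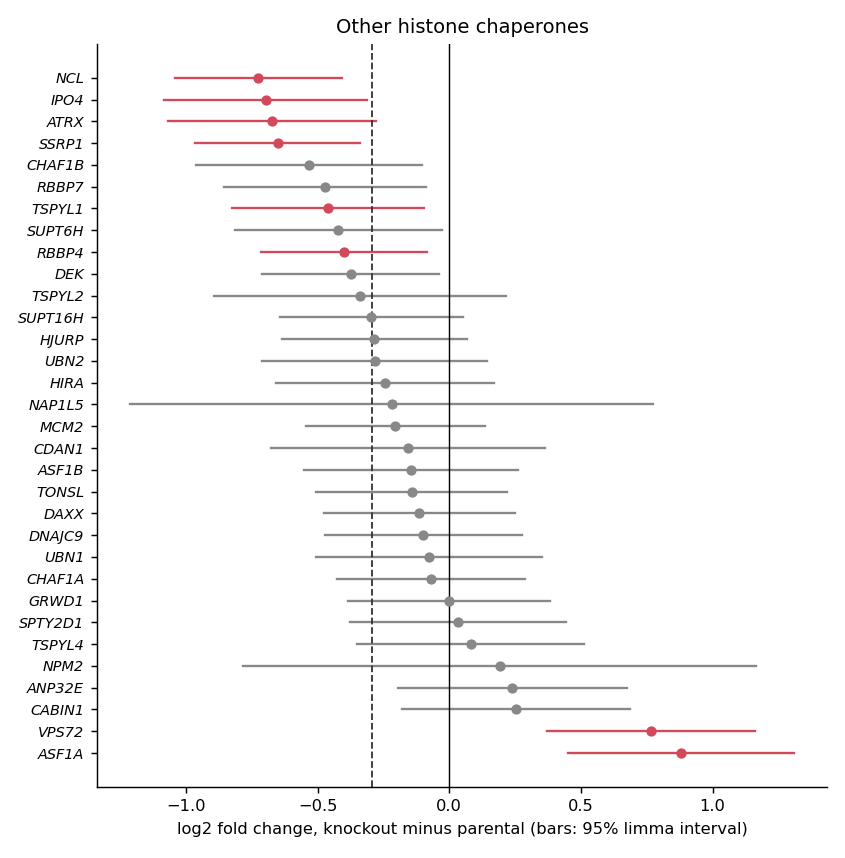
Log2 fold change with 95% limma interval for 32 histone chaperones outside the NAP1, NPM, SET, NASP and ANP32 genes above (knockout against parental RNA-seq, n = 2 each); red marks a limma adjusted p under 0.05 and the dashed line the median of all genes tested. The values run from -0.72 for NCL to 0.88 for ASF1A.

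SET and ANP32A also belong to a complex at the endoplasmic reticulum that granzyme A attacks in dying cells, and its 4 other proteins were measured. APEX1, a DNA repair endonuclease, fell 5.04-fold, from 1128 and 1463 in parental RNA-seq to 279 and 235 in the knockout (a log2 fold change of -2.32, SE 0.17, limma adjusted p = 9.53e-40). NME1, a nucleoside diphosphate kinase, went from 684 and 626 to 453 and 349 (-0.72, SE 0.17, limma adjusted p = 3.27e-04). That call did not hold without the intensity trend (limma adjusted p = 0.0923). With 1 library left out, the log2 fold change of NME1 ran from -0.91 to -0.53. HMGB2, a DNA-bending protein, gave -0.04 (limma adjusted p = 0.887) and TREX1, a DNA exonuclease, -0.11 (limma adjusted p = 0.853). The complex thus held mRNAs with a fall larger than that of SET beside mRNAs whose groups overlapped.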

How the data were processed

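One table was used. The signal values that the authors deposited in its library columns are read counts of a gene over the size factor of that library. Per the file headers it also holds the authors' log2 fold change with its error, linear fold (ratio), test score, p-values and −log10 of the adjusted p-value. The submitters' processing notes name STAR 2.6, RSEM, SAMtools, DESeq2 and GRCh38; the sources used here give neither annotation release nor strand use. All values (100% in every library, tolerance 0.001 reads) were whole multiples of 1 read, so reads were recovered.

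On log2(value + 1), keeping the deposited scaling, limma-trend (limma 3.58.1 under R 4.3.3) compared genotypes for the 14561 genes that reached 1 in 2 or more of the 4 RNA-seq libraries, two-sided, with Benjamini-Hochberg adjustment over all genes and a call at 0.05. As the prior degrees of freedom were infinite, all spreads were read from the trend of spread with level. The edgeR 4.0.16 quasi-likelihood test on recovered reads with TMM factors called 2612 genes lower and 2130 higher. Other alternatives were centring, edgeR with deposited size factors, other filters and pseudocounts, no intensity trend, the TSS libraries in place of parental RNA-seq, each library left out and a replicate block. The pipeline was tested on simulated data. Members and lists were chosen with earlier results of these data known; the pyrimidine classes, the single markers, NPM1P27, IPO4, ATRX, RBBP4, TSPYL1 and the genes without a call outside the members were named after their values were seen. Named genes were the 8 members, LARP1, the 2 smallest adjusted p per list and direction, and the 5 nearest patterns. Gene coordinates come from GENCODE release 29 (14535 identifiers matched without version), start windows from RefSeq (GRCh38.p14) by symbol, matching all 8 members.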

Additional observations from a re-analysis of the deposited data

How the results depend on the processing

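NAP1L1, NPM1, ANP32B and NPM3 stayed lower and called under all 14 alternatives, with log2 fold changes of -4.09 to -3.58, -3.11 to -2.67, -1.87 to -1.21 and -1.26 to -0.82. None of the 14 scaled libraries by read share. Per 1000000 reads outside mitochondrial genes, NPM3 was 95.7 and 88.6 in parental RNA-seq and 87.2 and 82.5 in knockout libraries. The deposited scaling set 1 read at 1.35 and 1.22 in parental RNA-seq and at 0.764 and 0.683 in knockout libraries. The uncalled members changed sign. NAP1L4 was 0.19 after centring and 0.17 with edgeR and TMM factors. ANP32A was -0.0767 against the TSS libraries and -0.0641 to 0.2506 when 1 library was left out. After centring and with edgeR and TMM factors, 5 members were called lower and 1, ANP32A, higher. Of all genes tested, 16.2% and 17.9% were called lower in these settings and 14.6% higher in each. With 1 library left out, SET ran from -0.58 to -0.31 and NASP from -0.94 to -0.40. SET and NASP were lost without the intensity trend (limma adjusted p = 0.215 and 0.133).

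Over all genes, 3649 were lower and 549 higher. Centring gave 2365 and 2119, no intensity trend 1962 and 282, and leaving out 1 library 1233 to 2416 lower and 116 to 389 higher. With edgeR and TMM factors 2130 were higher, and against the TSS libraries 922. Of the other chaperones, 0 were lower and 0 higher without the trend (limma, 4 and 2 at an unadjusted p under 0.05), 4 were higher after centring and 5 with edgeR and TMM factors; leaving out 1 library gave 0 to 5 lower and 0 to 2 higher. Of the SET complex partners, 1 was lower without the trend and 1 to 2 with 1 library left out, and 1 was higher after centring (HMGB2) and 1 against the TSS libraries. All 15 yardstick TOP mRNAs were lower in each setting. The paralog ratios kept their sign in all 7 alternatives run for each.

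Both genotypes share replicate numbers, but the labels tie them to nothing, and the deviations of same-numbered libraries correlated at 0.006 over 11786 genes. With the replicate block 5 members were lower (SET at limma adjusted p = 0.0712), and over all genes 2771 were lower and 388 higher. Depth limits ANP32A and ANP32B most, at 116 to 266 reads per RNA-seq library.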
